A study of Danio rerio with 3 samples.

Results

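The TGF-beta and activin branch, with its ligands, receptors and signal-carrying Smads, was examined in cranial cartilage of wild-type zebrafish larvae at 6 dpf. The members were chosen by gene name, with earlier results of these data known. The 10 names covered the ligands tgfb1a, tgfb2 and tgfb3 and the type I receptors tgfbr1a, tgfbr1b and acvr1b. They also held the type II receptor tgfbr2 and smad2, smad3a and smad3b. All 10 names had a row among the 14417 genes of the count table. Cartilage was cut by laser from the cranial base, in the occipital region, with the perichondrium avoided, and the 3 samples, named libraries 1, 3 and 6 after their titles, belong to 1 condition. No mutant, treatment or other tissue was sequenced, so nothing was compared between conditions. How many larvae went into a sample is not given in the sources used here. The p-values concern only these 3 samples. The sign-flip permutation test behind them gives p = 0.25 whenever a ratio has the same direction in all 3, whatever its spread.

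TGF-beta ligands are secreted in a latent complex and, once released, bring together type II and type I receptor kinases. The type II receptor phosphorylates the type I receptor, which in turn phosphorylates Smad2 and Smad3, and these enter the nucleus with the shared partner Smad4. Activins use their own type II receptors and the type I receptor encoded by acvr1b, and reach the same Smads, whereas BMPs act through Smad1, Smad5 and Smad9. In mouse cartilage, TGF-beta signalling through Smad3 is known for holding back the late steps of chondrocyte maturation.

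The libraries held from 18920027 to 25604897 counted reads, of which the row AC024175.4 took from 34.7% to 59.0%. Counts were therefore scaled with TMM, a trimmed mean that a few abundant genes hardly move, and a normalized count is a read count after this scaling, with 1 read worth 0.965, 1.102 and 0.947 normalized counts in libraries 1, 3 and 6. Of the chondrocyte markers with a row, 16 of 17 reached 10 normalized counts in each library. Passing this minimum does not mark a tissue, since 8 of 8 muscle markers, 9 of 9 nerve markers and 67.8% of all genes also passed. By sum, chondrocyte markers had at least 986230 normalized counts in each library, against at most 12519 for muscle and 13935 for nerve. The chondrocyte sum differed 1.60-fold between the lowest and the highest library. Library 1 stood apart by the sum of 10 markers of perichondrium and bone, at 198694 normalized counts against 6317 in library 3 and 11965 in library 6. Most of this sum came from the type I collagen genes col1a1a, col1a1b and col1a2, with 56620.5, 91710.5 and 37406 in library 1. The genes runx2b (606, 492 and 1439 in libraries 1, 3 and 6) and sp7 were highest in library 6, and the other markers in library 1. The 6 epidermal markers summed to 39199, 5348 and 5376 in libraries 1, 3 and 6. Library 3 had the lowest sum of 5 blood and endothelial markers, at 5445 normalized counts against 34631 in library 1 and 35359 in library 6. In bulk RNA, fewer cells of a type and less RNA per cell cannot be told apart. The common dispersion in edgeR was 0.356, a biological coefficient of variation of 0.597, so differences between these libraries were large for many genes.

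Reads were found for all 10 members in every library. The minimum, set at 10 normalized counts in each library, was passed by 7 of the 10 members, the exceptions being tgfbr1a, tgfbr1b and smad3b, and by 67.8% of all genes in the table. The share of members was therefore close to that of the whole table. Each of the 3 exceptions passed in at least 1 library and in its mean. Raising the minimum to 50 normalized counts in every library left 4 members, and leaving out library 3 raised the number at the minimum of 10 from 7 to 9.

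**Figure D1:**
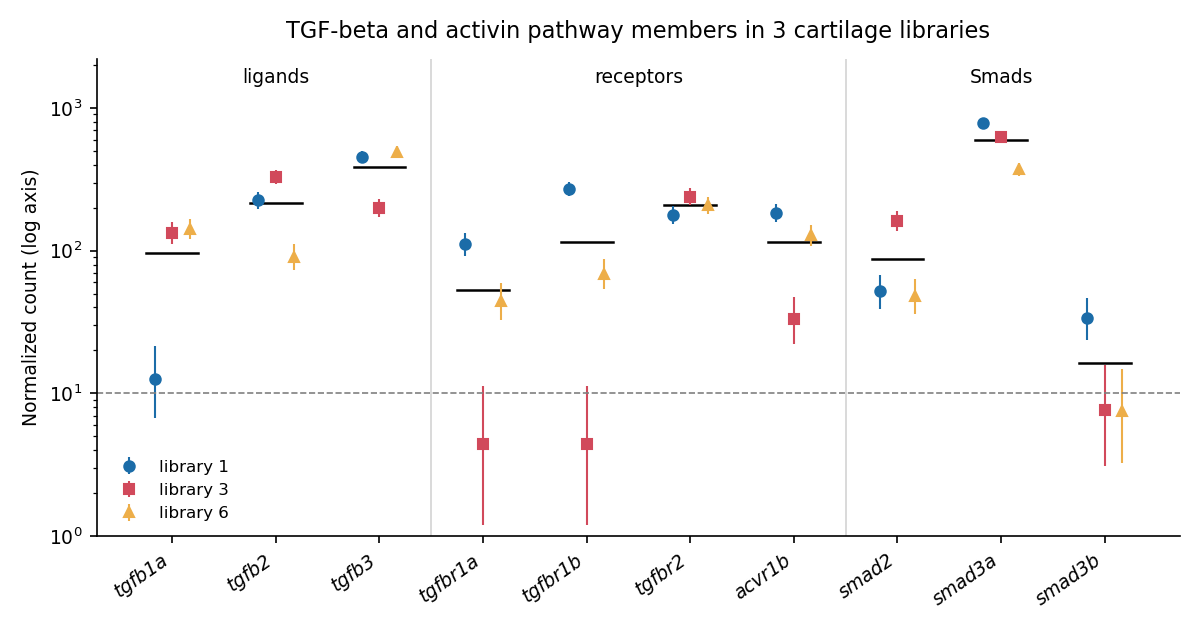
Normalized count (log axis) of each member in libraries 1, 3 and 6, with 95% Poisson intervals that cover counting error only, black bars at the means and a dashed line at 10 normalized counts. Library 3 is far below the others for tgfbr1a and tgfbr1b, at 4.41 normalized counts each, and library 1 is far below the others for tgfb1a, at 12.5.

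Among the ligands, tgfb3 had 454, 200.5 and 494 normalized counts in libraries 1, 3 and 6, a mean of 383 ± 159 (SD, n = 3). Libraries 1 and 6 were high and library 3 was low, with Poisson intervals of 414 to 497, 172 to 232 and 453 to 538.5. For tgfb2 the values were 225, 327 and 90.9 normalized counts in libraries 1, 3 and 6, with a mean of 214 ± 118 (SD, n = 3). In contrast to tgfb3, library 3 was highest and library 6 lowest. The third ligand, tgfb1a, had 12.5, 133 and 143 normalized counts in the same order, from 13, 121 and 151 reads. Libraries 3 and 6 lay within each other's counting error, and library 1 was more than 10-fold lower, with an interval of 6.68 to 21.5. The mean of tgfb1a was 96.3 ± 72.7 (SD, n = 3).

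The ligands together were steadier than any ligand alone. Their sum was 691, 661 and 728 normalized counts in libraries 1, 3 and 6, a coefficient of variation of 4.86%, against 41.6% for tgfb3, 55.3% for tgfb2 and 75.5% for tgfb1a. What differed was the make-up of the sum. tgfb3 gave 65.6% of the ligand reads in library 1 and 67.9% in library 6 but 30.3% in library 3, where tgfb2 gave 49.5%. tgfb1a gave 1.82%, 20.2% and 19.6% in libraries 1, 3 and 6. The steadiness of this sum was noticed after its values were seen and was not tested, and it depended on the scaling, with a coefficient of variation of 22.5% under total-count scaling and from 4.14% to 12.4% under the others. These shares are of reads, without correction for transcript length.

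The TGF-beta type I receptors differed most between libraries. For tgfbr1b, which with tgfbr1a encodes the TGF-beta type I receptor (ALK5), the values were 271, 4.41 and 69.1 normalized counts in libraries 1, 3 and 6, from 281, 4 and 73 reads. The gene tgfbr1a followed the same order with 111, 4.41 and 44.5 normalized counts, from 115, 4 and 47 reads. The upper Poisson limit of either gene in library 3 was 11.3 normalized counts, under the lower limits of 32.7 for tgfbr1a and 54.2 for tgfbr1b in library 6. These limits are too narrow where amplified reads copy the same molecule. Their means were 115 ± 139 for tgfbr1b and 53.3 ± 53.8 for tgfbr1a (SD, n = 3), and each SD was as large as its mean. Leaving out library 1 lowered these means to 36.0 and 24.0, and leaving out library 3 raised them to 178 and 81.3. The activin type I receptor gene acvr1b (now acvr1ba in RefSeq, ALK4) had 184, 33.0 and 129 normalized counts, again highest in library 1 and lowest in library 3, with a mean of 115 ± 76.5 (SD, n = 3). All 3 type I receptor genes thus had the order of library 1, then 6, then 3, under every scaling tried. The share of all genes with this order was not counted, here or where the order is met below.

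Some markers of perichondrium and bone, epidermis and blood had the same order, and others did not. The perichondrium and bone gene col1a1a had 56620.5, 3876 and 5989 normalized counts in libraries 1, 3 and 6, the epidermal keratin gene krt5 had 17257, 49.6 and 110, and the haemoglobin gene hbaa1 had 32434, 3837 and 28124. Each was highest in library 1 and lowest in library 3, as the type I receptors were. So were the perichondrium and bone markers col1a1b, col1a2, spp1, postna, ifitm5 and phex and the epidermal markers krt4 and epcam. Other markers of the same lists did not have this order, among them postnb and runx2b. Of the blood and endothelial markers, the haemoglobin gene ba1 had 1827, 995.8 and 6785 normalized counts and the endothelial gene kdrl 22.2, 3.30 and 59.7, both highest in library 6. The lysozyme gene lyz was at 0 reads in library 1, and fli1a, at 348, 330.5 and 232, was lowest in library 6. Of the bone markers, sp7, an osteoblast transcription factor gene, was at 0 reads in library 1 and had 29.7 and 44.5 normalized counts in libraries 3 and 6. Among the epidermal markers, tp63 had 576, 166 and 111 normalized counts and zgc:92533 had 11122, 5039 and 4354, both lowest in library 6. The epidermal gene cldne was also highest in library 1, with 488 normalized counts, and was at 0 reads in libraries 3 and 6. The most abundant muscle markers, mylpfa (1978, 861 and 4015 normalized counts) and pvalb2 (3130, 1172 and 995), did not have the receptor order. Nor did nerve markers such as tubb5 (1382, 2758 and 4881) and mbpa (1660, 1256 and 1689), or any other muscle or nerve marker. The chondrocyte marker col11a2 did (26765, 19743 and 21553), unlike col2a1a (282200, 336420 and 480763) and col11a1a (291557, 250740 and 442683). The part of cells of other tissues in the receptor values was not tested.

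The type II receptor gene tgfbr2 (now tgfbr2b in RefSeq) had the narrowest range of the members, except under total-count scaling, where smad3a was narrower. It had 178, 239 and 208 normalized counts in libraries 1, 3 and 6, a mean of 208 ± 30.7 (SD, n = 3). The intervals of library 1 (153 to 205) and library 3 (208 to 273) did not overlap, but the highest library exceeded the lowest only 1.34-fold. Of all genes whose mean reached 10 normalized counts, 6.52% had a smaller range. The receptors that form 1 complex were therefore not counted in a fixed proportion. Library 3 had 217 reads of tgfbr2 beside 8 of the tgfbr1 genes together, and library 1 had 184 beside 396.

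**Figure D2:**
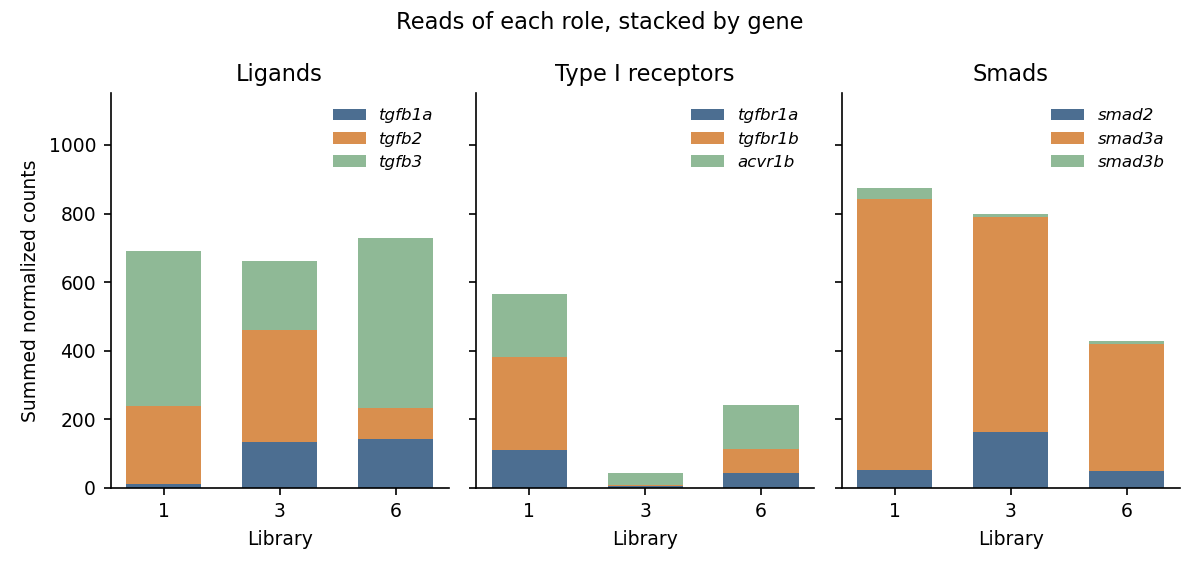
Summed normalized counts of the ligands, the type I receptors and the Smads in libraries 1, 3 and 6, stacked by gene. The ligand sum stays between 661 and 728 while its make-up changes, the sum of the type I receptors runs from 41.9 to 567, and smad3a is most of the Smad bar in every library.

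Of the Smads, smad3a had the highest mean of the members, 597 ± 211 normalized counts (SD, n = 3), from values of 790, 629 and 372 in libraries 1, 3 and 6. The intervals of the libraries did not overlap, and the range was 2.12-fold. The other Smad3 gene, smad3b, was at the bottom of the list with 33.8, 7.71 and 7.57 normalized counts, from 35, 7 and 8 reads, and a mean of 16.4 ± 15.1 (SD, n = 3). Its mean fell to 7.51 without library 1. The values for smad2, which encodes the other Smad that TGF-beta and activin receptors phosphorylate, were 52.1, 162 and 48.3 normalized counts, with a mean of 87.4 ± 64.5 (SD, n = 3). Library 3 was high for smad2 and libraries 1 and 6 lay within each other's counting error. Its mean fell to 52.5 without library 3. Reads of smad3a made up 90.2%, 78.8% and 86.9% of the Smad2 and Smad3 reads in libraries 1, 3 and 6.

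Duplicate genes were set side by side within each library, where scaling cancels. The log2 ratio of smad3a to smad3b reads was 4.51, 6.16 and 5.45 in libraries 1, 3 and 6, a mean of 5.37 ± 0.83 (SD, n = 3), or 41.4-fold, with smad3a higher in 3 of 3 libraries. An exact two-sided sign-flip permutation test gave p = 0.25, the smallest p that 3 libraries allow, and 0.33 after Benjamini-Hochberg adjustment over 4 ratios. For tgfbr1b to tgfbr1a the log2 ratio was 1.28, 0 and 0.62 in the same order, with a mean of 0.64 ± 0.64 (exact permutation p = 0.50, adjusted p = 0.50). It was no larger than its spread, and the value of library 3 rests on 4 reads of each gene. Reads that match both copies of a duplicate gene could have been split or dropped in the counting, and no transcript lengths were at hand, so these are ratios of reads and not of transcripts.

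In the gene order of RefSeq, smad6a, which encodes an inhibitory Smad of the BMP branch, stands next to smad3a, and smad6b stands next to smad3b. The values of these neighbours did not follow those of the Smad3 genes. The gene smad6a had 29.9, 52.9 and 36.0 normalized counts in libraries 1, 3 and 6, and smad6b had 48.3, 381 and 133, highest in library 3 where smad3b had 7 reads. These neighbours were chosen after their values were seen.

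The study is about BMP signalling, and the members were therefore set beside their BMP counterparts. The log2 ratio of summed smad2, smad3a and smad3b reads to summed smad1, smad5 and smad9 reads was -0.59, -0.24 and -0.82 in libraries 1, 3 and 6, a mean of -0.55 ± 0.29 (SD, n = 3). The BMP Smads had the larger sum in 3 of 3 libraries, by 1.47-fold on average (exact permutation p = 0.25, adjusted p = 0.33). In each branch 1 gene held most of the reads, smad3a as above and smad1 with 84.8%, 87.5% and 92.0% of its sum. The type I receptors were further apart and less even. The log2 ratio of tgfbr1a, tgfbr1b and acvr1b to bmpr1aa, bmpr1ab, bmpr1ba, bmpr1bb and acvr1l was -1.05, -5.07 and -2.59, a mean of -2.90 ± 2.03 (SD, n = 3), again with the BMP sum larger in 3 of 3 libraries (exact permutation p = 0.25, adjusted p = 0.33). The mean was -3.83 without library 1, -1.82 without library 3 and -2.20 without acvr1l. Between libraries the BMP receptor sum ran from 1178 to 1460 normalized counts, whereas the sum of tgfbr1a, tgfbr1b and acvr1b ran from 41.9 to 567, a 13.5-fold range. Under total-count scaling the BMP receptor sum ran more widely, from 1039 to 1778. Within it, bmpr1bb ran from 26.4 to 162 normalized counts, a 5.94-fold range. The BMP sum left out acvrl1 (ALK1), which the paper counts among the BMP type I receptors and which had a mean of 111 normalized counts. The sums hold 3 and 5 genes and were not corrected for length, so they do not rank the branches in expression.

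**Figure D3:**
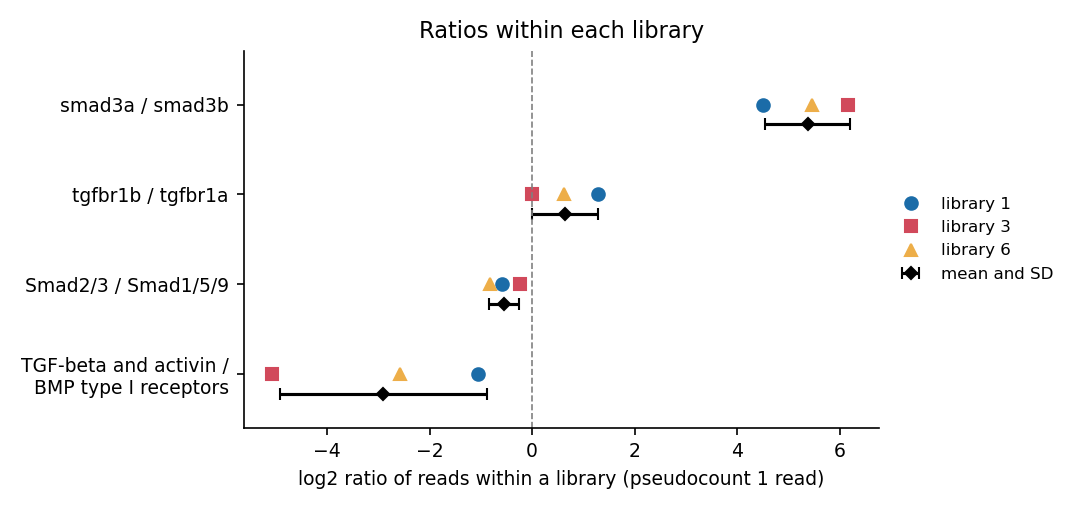
log2 ratio of reads within each library, with a pseudocount of 1 read, for the duplicate genes and for the sums of the TGF-beta and activin branch against the BMP branch, with the mean and SD below each row. The ratio of type I receptors is the most spread, from -5.07 in library 3 to -1.05 in library 1.

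Across the members, the highest library was at least 4-fold above the lowest for 5 of 10, namely tgfbr1b (50.4-fold on normalized counts + 1), tgfbr1a (20.7-fold), tgfb1a (10.6-fold), acvr1b (5.44-fold) and smad3b (4.06-fold). The same held for 43.6% of the 13166 genes whose mean reached 10 normalized counts, so the number of members was near the background. The median range was 3.81-fold for the members and 3.32-fold for those genes. Among the 10190 genes with a mean between the lowest and the highest member, the median was 3.87-fold and 48.8% had a 4-fold range. Just under the limit of 4-fold were tgfb2 (3.57-fold) and smad2 (3.31-fold). Library 1 was highest for 5 of the members, library 3 for 3 and library 6 for 2, beside 35.4%, 32.6% and 32.0% of all genes whose mean reached 10. The highest library of tgfb1a, tgfb3 and tgfbr2 changed under at least 1 other scaling. Leaving out library 1 or library 3 lowered the number with a 4-fold range from 5 to 2, and the share of all genes there is not given.

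**Figure D4:**
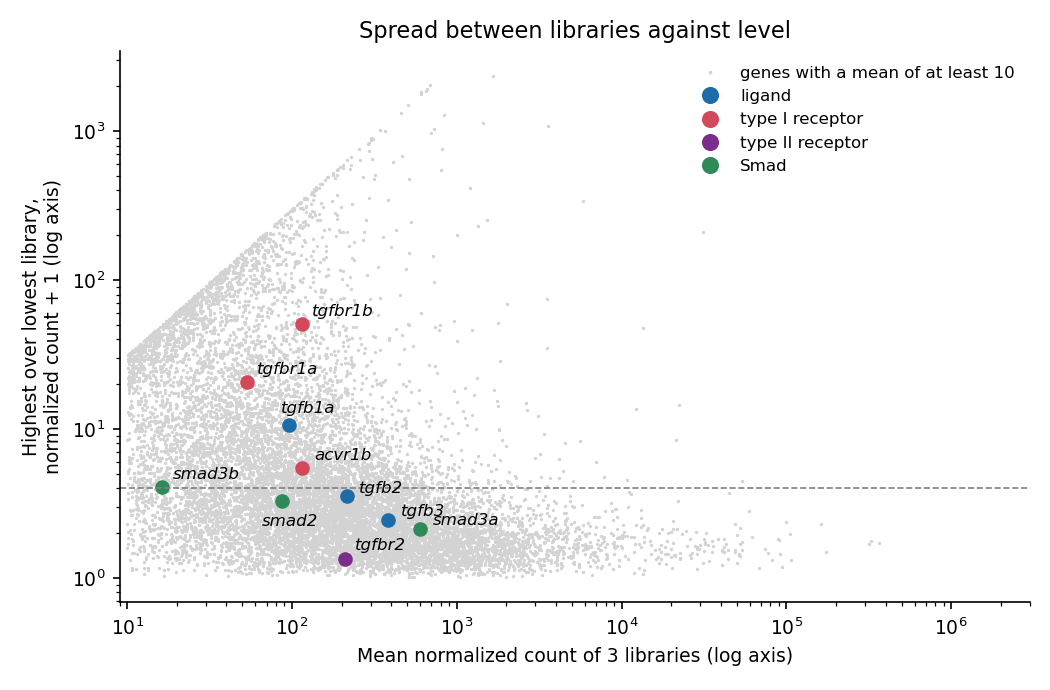
Highest over lowest library (normalized count + 1, log axis) against the mean normalized count (log axis), with the members coloured by role over all genes whose mean reached 10 and a dashed line at 4-fold. The members spread over the cloud, from tgfbr2 at 1.34-fold to tgfbr1b at 50.4-fold.

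Ranked by mean read level, the members ran from smad3a through tgfb3, tgfb2, tgfbr2, acvr1b, tgfbr1b, tgfb1a, smad2 and tgfbr1a to smad3b. None of the 9 pairs of neighbours in this order kept the same order in 3 of 3 libraries, so no neighbours differed beyond their spread. The mean of smad3a lay at the 84.5th percentile of all genes and that of smad3b at the 13.8th. This is an order of reads, since longer transcripts give more of them.

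With 3 libraries, a pattern across libraries is shared by many genes. Patterns were compared by the root mean square difference of centred log2 (normalized count + 1), among the genes at the minimum. Within 0.25 of tgfbr2 lay 1405 of 9778 genes and within 0.25 of smad3a 758. Fewer of the compared genes lay near the type I receptors for TGF-beta. For tgfbr1b only 1 of 9779 genes lay within 0.25, cotl1, which encodes an actin-binding protein and had 4423, 84.8 and 801 normalized counts in libraries 1, 3 and 6. For tgfbr1a there were 15 such genes, the nearest being sfrp1a, which encodes a secreted Wnt inhibitor, with 413, 18.7 and 155. For tgfb1a there were 40, the nearest being lhx2b, a LIM homeobox gene, with 20.3, 221 and 220. The genes compared had to pass the minimum in every library, which tgfbr1a, tgfbr1b and smad3b did not. Genes as low in library 3 as tgfbr1a and tgfbr1b were thus left out, so how rare these 2 patterns are was not tested. The nearest genes of the others were ruvbl2 for tgfb2, bicc1b for tgfb3, cstf2 for tgfbr2, wdr45 for acvr1b, ofd1 for smad2, nrip1b for smad3a and ubald1a for smad3b.

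Other genes of the pathway were taken from a list of 79, of which 49 had a row. The minimum was passed by 38 of them (77.6%), beside 67.8% of all genes, and 19 of the 47 whose mean reached 10 had a 4-fold range, beside 43.6%. For the co-Smad genes smad4a and smad4b no row was matched by name or synonym, and they are not analysed here. The study's supplement lists a Smad4 gene under a numbered name, a form that the matching did not meet. Listed genes without a matched row can therefore still be in the count table.

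Other ligands had few reads. Only inhbb, which encodes an activin B subunit, of the 5 with a row passed the minimum, beside 67.8% of all genes. It had 177, 24.2 and 30.3 normalized counts in libraries 1, 3 and 6. The activin A subunit gene inhbaa had 92.7 and 11.4 normalized counts in libraries 1 and 6 and 0 reads in library 3, and the myostatin gene mstnb had 7.72 and 18.9 with 0 reads in library 3. The nodal-related gene ndr1 had 0 reads in libraries 1 and 3 and 22.7 normalized counts in library 6. Where no read was counted, up to 3 reads are still possible, or 2.90 and 3.30 normalized counts in libraries 1 and 3. The 2 activin subunit genes were highest in library 1, as acvr1b was. Their order between libraries 3 and 6 rests on few reads, 22 and 32 for inhbb and 0 and 12 for inhbaa.

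Among genes that hold or release latent TGF-beta, levels differed widely. The thrombospondin gene thbs1b, whose product can activate latent TGF-beta in mammals, had 14591, 15789 and 31182 normalized counts in libraries 1, 3 and 6. The genes furina and furinb, for the protease that cleaves the TGF-beta precursor, had 7041 ± 3431 and 459 ± 222 (SD, n = 3). Of the 8 genes in this group with a row, 6 passed the minimum, beside 67.8% of all genes. The exceptions were the integrin genes itgav, with 1.93, 84.8 and 6.63 normalized counts, and itgb6, with 460.4, 7.71 and 56.8. The order of itgb6 was that of tgfbr1a and tgfbr1b, whereas itgav was highest in library 3. Of the 5 extracellular antagonists listed, 3 had a row, and these 3 passed the minimum, beside 67.8% of all genes. Follistatin genes fsta and fstb had 121 ± 108 and 123 ± 63.4 normalized counts and fstl3 had 55.1 ± 34.6 (SD, n = 3).

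**Figure D5:**
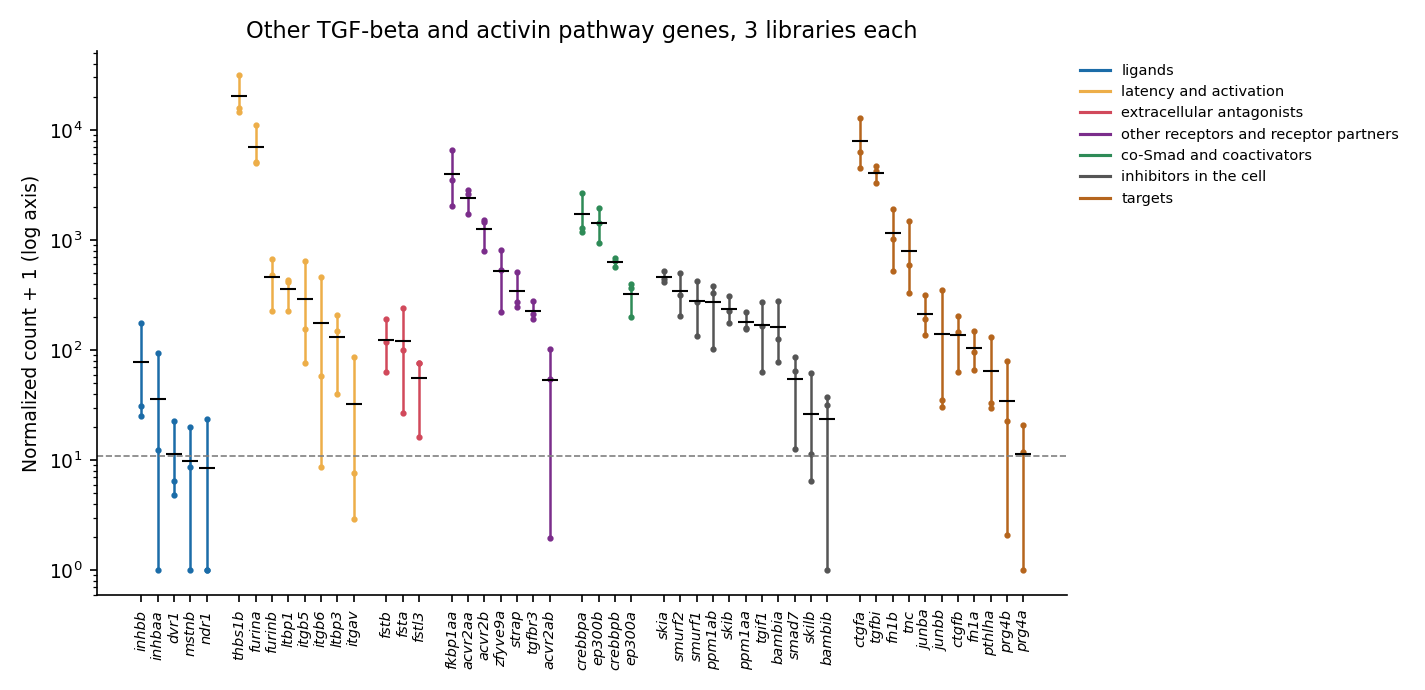
Normalized count + 1 (log axis) of the 49 other pathway genes with a row, grouped by role, with points for the 3 libraries, a line over their range, a black bar at the mean and a dashed line at the minimum of 10. Ligands lie lowest, with only inhbb above the dashed line in every library, and thbs1b, ctgfa and furina reach the highest levels.

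The activin type II receptor genes were counted at high levels. The gene acvr2aa had 2624, 2854 and 1727 normalized counts in libraries 1, 3 and 6 and acvr2b had 1534, 1453 and 791, ranges of 1.65-fold and 1.94-fold. BMPs also use these receptors. Of 7 receptor and partner genes, 6 passed the minimum, beside 67.8% of all genes. The exception was the duplicate acvr2ab, with 1 read in library 1 and 101 and 54.0 normalized counts in libraries 3 and 6. The co-receptor gene tgfbr3, betaglycan, had 227 ± 45.9 normalized counts (SD, n = 3), and the gene fkbp1aa, for a protein that binds resting type I receptors, 4013 ± 2289.

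All 4 coactivator genes with a row passed the minimum, beside 67.8% of all genes. They were led by crebbpa with 1706 ± 820 normalized counts, ep300b with 1440 ± 516 and crebbpb with 633 ± 56.3 (SD, n = 3). Inhibitors within the cell passed in 9 of 11 cases, beside 67.8% of all genes. The highest were skia, for a corepressor that binds Smad2 and Smad3, with 461 ± 55.3 normalized counts, and the ubiquitin ligase genes smurf2 with 341 ± 149 and smurf1 with 276 ± 146 (SD, n = 3). The inhibitory Smad gene smad7, a feedback target of TGF-beta in mammals, had 11.6, 85.9 and 63.4 normalized counts in libraries 1, 3 and 6. It was low in library 1, as tgfb1a was, and not where the type I receptors were low. The pseudoreceptor gene bambib had 30.9 and 36.9 normalized counts in libraries 1 and 6 and 0 reads in library 3.

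Genes known in mammals as targets of TGF-beta had counts in most cases, and 9 of 11 passed the minimum, beside 67.8% of all genes. The connective tissue growth factor gene ctgfa (now ccn2a) had 4551, 6325 and 12848 normalized counts in libraries 1, 3 and 6, and tgfbi, a matrix protein gene, 4190, 3308 and 4685. The fibronectin gene fn1b had 521, 1912 and 1013. Of the 11, 4 were lowest in library 3, where tgfbr1a and tgfbr1b were low, beside 33.1% of all genes whose mean reached 10. They were tgfbi, ctgfb with 145, 61.7 and 204 normalized counts, prg4b with 78.2, 1.102 and 21.8, and the tenascin gene tnc with 1476, 333 and 596. Of these, prg4b and tnc had the same order as the type I receptors. In the other roles of the pathway list inhbaa, inhbb, itgb6, fstb, fkbp1aa, tgfbr3, crebbpb, smurf2 and skilb had it too. The transcription factor gene junbb had 350, 34.1 and 29.3 normalized counts. The lubricin gene prg4a had 0 reads in library 1 and 11.02 and 19.9 normalized counts in libraries 3 and 6. Other pathways also drive these targets, and receptor or Smad activity was not measured in these libraries. The genes itgav, itgb6, acvr2ab, tgfbr3, smad7, skilb, junbb, ctgfb, prg4b, tnc, kdrl, lyz, fli1a, cldne and sp7 were named after their values were seen. So were col11a2, col1a2, spp1, postna, postnb, ifitm5, phex, runx2b, krt4, epcam, tp63 and acvrl1.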

How the data were processed

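RNA from 3 laser-captured wild-type cartilage samples was amplified for 1 round and sequenced. The authors deposited whole-number read counts per gene symbol, without normalization. Their processing notes name Trimmomatic 0.36, edgeR and the genome build Zv9, and the aligner and counter are not given in the sources used here. Because Zv9 differs from the RefSeq assembly GRCz12tu at hand, RefSeq served only for synonyms and gene order, and no coordinates are given. Listed genes were matched by name, then by a RefSeq synonym that was no other gene's symbol and met exactly 1 row.

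Counts were scaled by TMM in edgeR 4.0.16 (R 4.3.3) and put on the mean effective library size. Ratios within libraries had a pseudocount of 1 read, no length correction, and an exact two-sided sign-flip permutation test. Ranges used normalized counts + 1 among genes with a mean of at least 10. Poisson intervals (95%) and the limit of 3 reads for a count of 0 cover counting error only, because amplified reads are not independent molecules. Transcript and protein tables were not at hand, so length correction was not applied. No libraries looked like copies, since the chi-square divided by its degrees of freedom was 166, 252 and 416 for the library pairs. Scaling and range were tested on simulated data with a lower dispersion than the 0.356 of these libraries. That test does not show how the 4-fold range behaves at the spread seen here. Alternatives were DESeq2 1.42.0 size factors, other scalings, minimums and pseudocounts, other sums, and leaving out each library. Python 3.11.15, numpy 2.4.6, scipy 1.17.1, pandas 2.3.3 and matplotlib 3.10.9 were used.

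The text names every member, the BMP counterparts, the 3 most abundant genes at the minimum and each gene with a count of 0 in every role of the pathway list, and the gene nearest in pattern to each member. From the marker lists it names the 2 most abundant genes of each and further genes, listed above as named after their values were seen. The order in which markers are given was set with their values seen. A further gene was left out of the pathway list and its counts and is not reported here. The members and lists were chosen with earlier results of these data known.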

Additional observations from a re-analysis of the deposited data

How the results depend on the processing

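No paired analysis was possible because all samples belong to 1 condition. The number of members at the minimum was 7 under all 6 other scalings, 8 with a minimum of 5, 6 with 20, 4 with 50 normalized counts in every library, and 10 with 10 in the mean; with 1 library left out it ran from 7 to 9. The number with a 4-fold range was 4 or 5 under other scalings, filters and pseudocounts, and ran from 2 to 4 with 1 library left out, as fewer libraries give narrower ranges. The 38 other pathway genes at the minimum stayed within 1.5 times, from 31 to 47. For these alternatives the share of all genes is not given. The 4 ratios kept their sign under every alternative run. With 1 library left out, the log2 ratio of TGF-beta and activin to BMP type I receptors ran from -3.83 to -1.82, and without acvr1l it was -2.20. None of 60 member means under another scaling moved by more than 1 SD. That limit is wide, since the SD between libraries reached 121% of the mean for tgfbr1b. With 1 library left out, 0 of 30 means moved by more than 1 SD, although that of tgfbr1b fell from 115 to 36.0 without library 1. With 3 libraries, leaving out 1 cannot move a mean by 1 SD at a fixed scaling, so that count shows nothing about stability. Per-kilobase ratios were not run, for want of lengths. Depth limits tgfbr1a and tgfbr1b in library 3 (4 reads each) and smad3b in libraries 3 and 6 (7 and 8 reads).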
